A study of Mus musculus with 9 samples.

Results

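The UDP-glucuronosyltransferase genes followed here are 10 members of the mouse Ugt family, chosen by gene symbol from the 24532 genes of the deposited table: Ugt1a1, Ugt1a6a, Ugt2a3, Ugt2b1, Ugt2b5, Ugt2b34, Ugt2b35, Ugt2b36, Ugt3a1 and Ugt3a2. These members, and the gene lists below, were chosen with earlier results of these data known. The shares of all genes set beside them are therefore descriptions and not tests of the set. Their RNA was measured in 9 liver libraries of wild-type C57BL/6 mice, made with a strand-marking poly(A) kit and sequenced from both ends. Every mouse, controls included, was injected intraperitoneally with rising doses of thioacetamide (TAA), a liver toxin that scars the tissue, on 2 days of each week over 10 weeks. The first treated group (replicates 17, 18 and 19) was also given rhCYGB, a recombinant form of the human globin cytoglobin, into the tail vein at 2 mg/kg, also on 2 days of each week, in the last 2 weeks. The second (replicates 23, 27 and 28) received the same rhCYGB dose in the last 5 weeks. The TAA group (replicates 12, 13 and 14) received saline in its place. Livers were taken 2 days after the last rhCYGB dose. Livers without TAA are not analysed here, so the values compare livers that all carry the injury. Whether the replicate numbers stand for different mice is not in the labels, and the p-values measure only the spread between these samples, which may be technical.

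UDP-glucuronosyltransferases sit in the membrane of the endoplasmic reticulum, mainly of hepatocytes, and attach glucuronic acid from UDP-glucuronic acid to fat-soluble molecules. The resulting glucuronides of bilirubin, steroid hormones, bile acids and drugs dissolve in water and leave the cell through transporters into bile or blood. The Ugt1a genes share their last exons and each add a first exon of their own, whereas the Ugt2 and Ugt3 members followed here are separate units. Enzymes of the Ugt3 family are known from humans to use other sugars in place of glucuronic acid.

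On the TMM scale, in which counts are given as CPM, scaled to a common library size, after a correction for the make-up of each library, the fitted changes of all 10 members were above 0 in rhCYGB livers relative to TAA livers, although those of Ugt2a3, Ugt2b34 and Ugt2b35 after 2 weeks turned negative under scaling by library totals. By edgeR's test, 2 members passed in each course, where 1.98% and 0.686% of all tested genes rose after 2 and 5 weeks. After the 2-week course Ugt2b5 and Ugt2b36, the most abundant members, rose 1.61-fold and 1.45-fold. After the 5-week course Ugt1a6a and Ugt2b36 rose 1.70-fold and 1.56-fold. The 2-week calls held in 2 of the 9 fits that left out a library and the 5-week calls in 1 of 9, and no member was called in either course under scaling by library totals or upper quartile or on FPKM. DESeq2 called 4 members after 2 weeks and 8 after 5 weeks, where it called 6.70% and 4.30% of all tested genes higher. No member fell in either course, and none differed between the courses past the threshold. In whole tissue, more hepatocytes and more Ugt RNA per hepatocyte cannot be told apart.

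The members lie at 3 loci (mm10, the build of the deposited coordinates). Ugt1a1 (1: 88211959 to 88220002) and Ugt1a6a (1: 88134809 to 88220002) end at the same base on the plus strand. Of the 3229 exonic bases of Ugt1a1 and the 3302 of Ugt1a6a, 2316 are shared, which is 71.7% and 70.1% of the transcripts, so reads from those exons cannot be told apart by position. The 6 Ugt2 members occupy 447.4 kb of chromosome 5, between bases 86889770 and 87337195, and Ugt3a1 and Ugt3a2 lie in 91.0 kb of chromosome 15. Each member has a single transcript in the deposited table. The table identifies the called members by the gene IDs 94284 (Ugt1a6a), 22238 (Ugt2b5: 87124947 to 87140340, minus strand) and 231396 (Ugt2b36: 87065927 to 87092555, minus strand).

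Several members are close copies in their coding sequence (GENCODE M21 transcripts, identical bases over the longer sequence). Ugt3a1 and Ugt3a2 matched at 93.2% of bases. Ugt2b5, Ugt2b35 and Ugt2b36 matched each other at 87.7% to 88.4%. Beyond the members, Ugt1a6a matched Ugt1a6b at 98.4% and Ugt2b5 matched Ugt2b38 at 97.0%. How reads that fit several copies were shared out is not given in the sources used here, so the values of these genes as single genes are uncertain.

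Promoters are shown for the 3 members that passed a test, so that they can be read side by side. They come from RefSeq on GRCm38.p6, cover 250 bases before and 50 after the start of transcription, and run 5′ to 3′. The windows are chr5:87140291-87140590 on the minus strand for Ugt2b5, chr5:87092506-87092805 on the minus strand for Ugt2b36 and chr1:88134559-88134858 on the plus strand for Ugt1a6a. Capitals mark the letters of a palindrome (GTTA, 5 bases of any kind, TAAC) that is the pattern known for HNF1, a hepatocyte transcription factor. It was the same on both strands and did not overlap the other motifs searched.
Ugt2b5: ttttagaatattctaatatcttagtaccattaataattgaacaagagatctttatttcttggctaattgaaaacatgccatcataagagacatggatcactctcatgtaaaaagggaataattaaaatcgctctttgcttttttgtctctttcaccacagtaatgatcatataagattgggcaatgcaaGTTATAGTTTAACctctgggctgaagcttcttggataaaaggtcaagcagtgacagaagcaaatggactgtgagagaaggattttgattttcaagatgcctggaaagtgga
Ugt2b36: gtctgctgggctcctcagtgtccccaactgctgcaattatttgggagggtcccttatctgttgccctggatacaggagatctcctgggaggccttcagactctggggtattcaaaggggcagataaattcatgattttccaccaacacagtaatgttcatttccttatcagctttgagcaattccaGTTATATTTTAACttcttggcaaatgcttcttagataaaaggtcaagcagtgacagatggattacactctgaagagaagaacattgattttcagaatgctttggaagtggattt
Ugt1a6a: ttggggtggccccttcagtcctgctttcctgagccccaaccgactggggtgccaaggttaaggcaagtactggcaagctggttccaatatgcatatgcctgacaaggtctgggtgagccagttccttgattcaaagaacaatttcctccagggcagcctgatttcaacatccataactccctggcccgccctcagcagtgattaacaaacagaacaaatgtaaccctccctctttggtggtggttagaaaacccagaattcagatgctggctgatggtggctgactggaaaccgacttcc

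The palindrome occurred in the promoters of 6 of the 9 members matched in the RefSeq table (Ugt2b1, Ugt2b5, Ugt2b34, Ugt2b35, Ugt2b36 and Ugt3a1), against 109 of all 32851 promoters of that length, or 0.332%. All but Ugt3a1 are related Ugt2b genes from the same stretch of chromosome 5. Their promoters are not independent of each other, so the count cannot be weighed against that share as separate cases. Of 10 other Ugt genes with a promoter in the table, Ugt2b37 and Ugt2b38 held it. The remaining sites are shown with 8 bases on each side, so that the spacing and flanks can be compared.
Ugt2b1: ggttagaaGTTATATGTTAACttcttgat
Ugt2b34: gtgtacaaGTTACACTTTAACtgactgat
Ugt2b35: caactcagGTTATATTTTAACtcgtggat
Ugt3a1: taggacaaGTTAAAAATTAACtcttcacc

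In the 5 Ugt2b promoters the site began between 61 and 89 bases before the start, and in Ugt3a1 it began 130 bases before it. Ugt2b5 and Ugt2b36 also shared an unbroken run of 24 bases near the start, picked after the sequences were compared and shown here with AGGTCA, the core letters of nuclear receptor sites, in capitals.
shared run: gataaaAGGTCAagcagtgacaga

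That run began 28 bases before the start in Ugt2b5 and 31 bases before it in Ugt2b36, and Ugt2b37 was the other gene of the table with it. These core letters alone were common, at 16.3% of all promoters and in 3 of the 9 members (Ugt2b5, Ugt2b35 and Ugt2b36). Cores of xenobiotic response sites (GCGTG, 32.4% of all promoters) and antioxidant response sites (TGACNNNGC, 12.4%) were searched on both strands too, and their letters were in none of these 9 windows. All of these matches describe letters and not bound sites.

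Library totals ran from 55655727 to 87289945 estimated reads, and the lowest count of any member was 1088 reads, for Ugt3a1 in a TAA liver. The members together took 0.341% to 0.465% of reads after 2 weeks of rhCYGB, 0.418% to 0.577% after 5 weeks and 0.336% to 0.389% in TAA livers. On this plain share of reads the 5-week livers lay apart from the TAA livers, and the 2-week livers overlapped them. The TMM factors, which set the scale of each library, were 0.843 to 0.964 in 2-week livers, 0.916 to 1.04 in 5-week livers and 1.11 to 1.18 in TAA livers, and did not overlap between treated and TAA livers. The changes below are therefore relative to the TMM scale, on which the median log2 change of all 14731 tested genes was -0.03 after 2 weeks and 0.01 after 5 weeks.

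**Figure D1:**
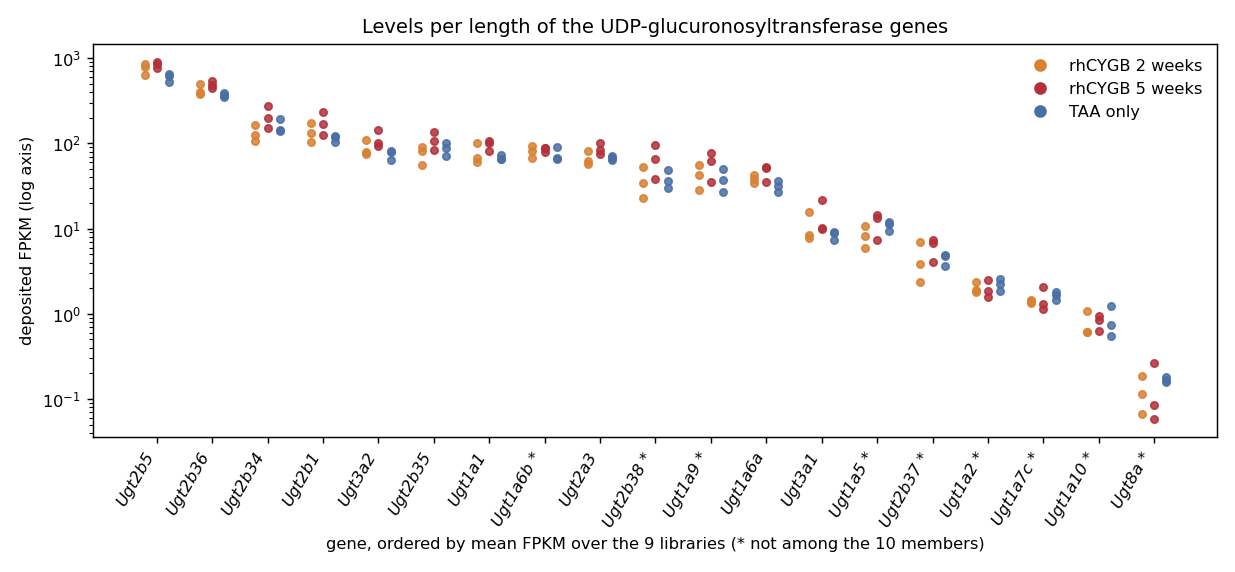
Deposited FPKM (log axis) of the Ugt genes in each of the 9 liver libraries, with points for rhCYGB 2 weeks, rhCYGB 5 weeks and TAA only, ordered by the mean over all libraries, with genes outside the 10 members marked by an asterisk. Ugt2b5 (mean 736 FPKM) and Ugt2b36 (429 FPKM) stand above the rest, and Ugt3a1 (11.0 FPKM) is the lowest of the members.

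Levels between genes were compared per length, as the FPKM that the authors deposited. Ugt2b5 was the most abundant, with 763 ± 110 FPKM after 2 weeks of rhCYGB, 843 ± 71.6 after 5 weeks and 601 ± 62.8 in TAA livers (SD, n = 3 each). Ugt2b36 followed with a mean of 429 FPKM over all libraries. Ugt2b5 exceeded Ugt2b36, and Ugt2b36 exceeded Ugt2b34 (166 FPKM), in 9 of 9 libraries.

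The middle of the order was not fixed. Ugt2b34 stood above Ugt2b1 (142 FPKM) in 7 libraries of the 9, Ugt3a2 (92.0 FPKM) above Ugt2b35 (90.2 FPKM) in 5, Ugt2b35 above Ugt1a1 (80.1 FPKM) in 6 and Ugt1a1 above Ugt2a3 (73.9 FPKM) in 7. Ugt2a3 stood above Ugt1a6a (38.8 FPKM), and Ugt1a6a above Ugt3a1 (11.0 FPKM), in 9 of 9 libraries. Together the 6 Ugt2 members held 86.9% to 89.8% of the members' summed FPKM in each library, so the measured family message was mostly Ugt2.

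**Figure D2:**
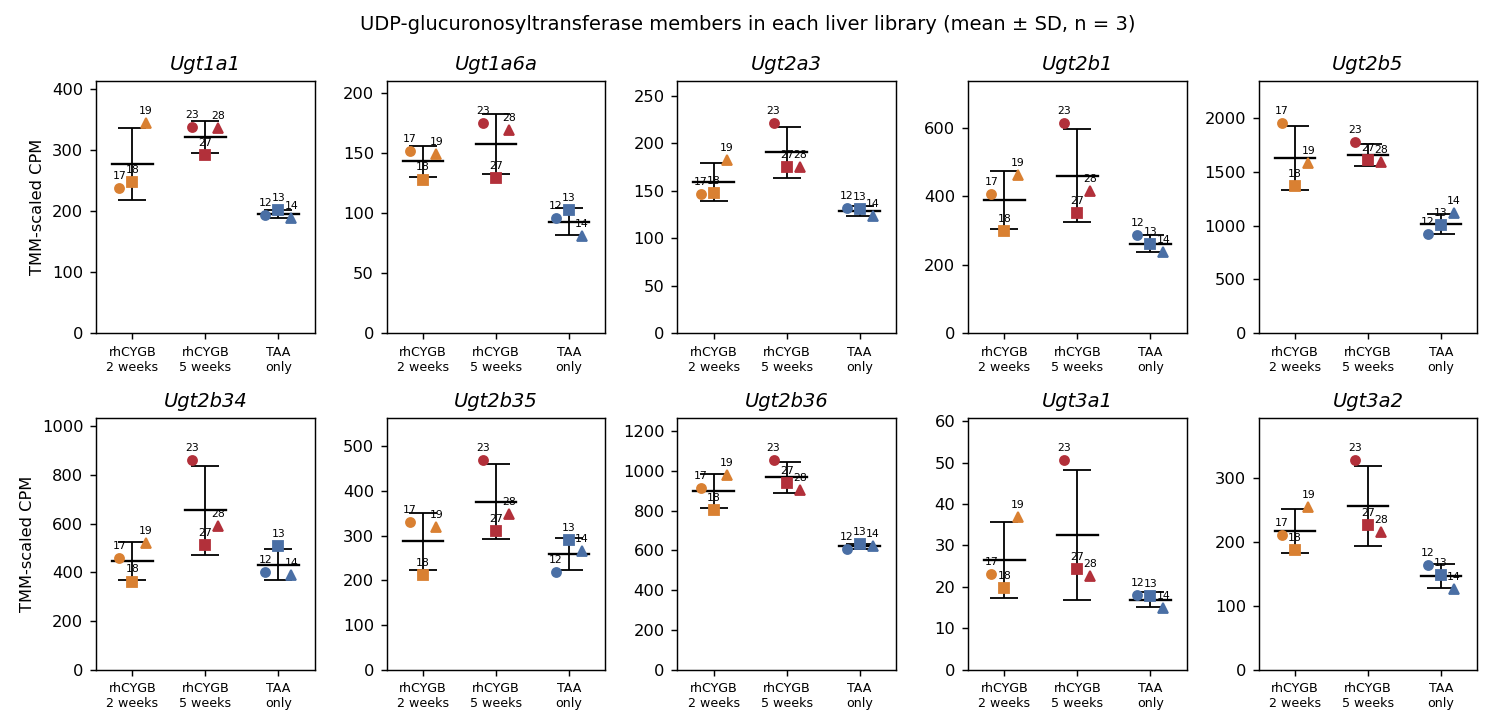
TMM-scaled CPM of the 10 members in each library, with 1 point per library labelled by its replicate number, a line at the mean and bars of 1 SD (n = 3 each). The rhCYGB groups stand left of the TAA livers; replicate 23 is the highest library in 8 of the 10 members.

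Ugt1a1 makes the enzyme that conjugates bilirubin, the breakdown product of heme, for export into bile. It had 238, 247 and 344 CPM in the 2-week livers and 337, 291 and 336 CPM in the 5-week livers, against 193, 202 and 189 CPM in TAA livers. All 6 rhCYGB livers lay above the TAA livers, and replicate 19 was the highest. The log2 change was 0.51 ± 0.15 (SE) after 2 weeks (edgeR adjusted p = 0.0900) and 0.72 ± 0.15 after 5 weeks (edgeR adjusted p = 0.0548), so neither passed the threshold of 0.05.

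Ugt1a6a makes an enzyme that conjugates small flat phenols. Its 2-week livers held 152, 128 and 150 CPM and its 5-week livers 175, 129 and 169 CPM, against 96.0, 103 and 80.5 CPM in TAA livers. Neither rhCYGB group overlapped the TAA livers, the 2 courses overlapped each other, and replicates 18 and 27 were the lowest of their groups. After 5 weeks Ugt1a6a rose by 0.76 ± 0.15 on the log2 scale (edgeR adjusted p = 0.0480). After 2 weeks the log2 change was 0.62 ± 0.15 (edgeR adjusted p = 0.0554).

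The Ugt2b enzymes conjugate steroid hormones, bile acids and drugs. Ugt2b5 had 1954, 1367 and 1578 CPM in the 2-week livers and 1779, 1606 and 1592 CPM in the 5-week livers, against 922, 1007 and 1113 CPM in TAA livers. Every rhCYGB liver exceeded every TAA liver on this scale, with replicate 17 the highest. It rose after 2 weeks, with a log2 change of 0.69 ± 0.15 (edgeR adjusted p = 0.0410). The change after 5 weeks was of like size, 0.71 ± 0.15, with an edgeR adjusted p of 0.0548.

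Ugt2b36 had 913, 806 and 979 CPM in the 2-week livers and 1057, 940 and 906 CPM in the 5-week livers, against 607, 633 and 623 CPM in TAA livers. The 3 TAA livers lay close together (SD 13.2 CPM) and below every rhCYGB liver. It was the member that rose in both courses, by 0.53 ± 0.12 on the log2 scale after 2 weeks (edgeR adjusted p = 0.0416) and by 0.64 ± 0.12 after 5 weeks (edgeR adjusted p = 0.0448).

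Ugt2b34 and Ugt2b35 were the members with the smallest fitted changes after the short course. Ugt2b34 had 457, 362 and 521 CPM in the 2-week livers and 863, 511 and 589 CPM in the 5-week livers, against 402, 507 and 389 CPM in TAA livers. The 2-week livers overlapped the TAA livers, the log2 change being 0.05 ± 0.21 (edgeR adjusted p = 0.908), and replicate 23 stood above the rest. Ugt2b35 ranged from 213 to 330 CPM after 2 weeks and from 310 to 470 CPM after 5 weeks, against 220 to 291 CPM in TAA livers. Its log2 change was 0.15 ± 0.21 after 2 weeks (edgeR adjusted p = 0.678). After 5 weeks both lay above all TAA livers, by 0.60 ± 0.21 for Ugt2b34 (edgeR adjusted p = 0.173) and 0.54 ± 0.21 for Ugt2b35 (edgeR adjusted p = 0.201).

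These are long transcripts, at 3048 and 3358 bases, whereas those of Ugt2b5 and Ugt2b36 have 1893 and 1888 bases. Ugt1a1 and Ugt1a6a are as long, at 3229 and 3302 bases, with 2-week log2 changes of 0.51 and 0.62. Over all 14731 tested genes the log2 change after 2 weeks fell with transcript length (Spearman rho -0.42 across genes, which are not independent replicates), while after 5 weeks rho was 0.05. With the length trend of each library removed, the 2-week log2 changes were 0.12 for Ugt2b34 and 0.26 for Ugt2b35. In that fit Ugt2b5 and Ugt2b36, at 0.58 and 0.42, were no longer called after 2 weeks, and Ugt1a1 and Ugt1a6a, at 0.59 and 0.72, were. Whether transcript length is a cause of the differences between the members was not tested.

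Ugt2b1 ranged from 298 to 463 CPM after 2 weeks and from 352 to 614 CPM after 5 weeks, against 237 to 286 CPM in TAA livers. Neither rhCYGB group overlapped the TAA livers, with log2 changes of 0.58 ± 0.22 (edgeR adjusted p = 0.159) and 0.82 ± 0.22 (edgeR adjusted p = 0.0964). Ugt2a3, whose human counterpart conjugates bile acids, ranged from 147 to 182 CPM after 2 weeks and from 175 to 221 CPM after 5 weeks, against 123 to 132 CPM in TAA livers. Its log2 changes were 0.30 ± 0.14 (edgeR adjusted p = 0.215) and 0.57 ± 0.14 (edgeR adjusted p = 0.0723).

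The Ugt3 members differed in level but had like profiles over the libraries (r = 0.95). In humans UGT3A1 is known to transfer N-acetylglucosamine, and UGT3A2 glucose and xylose. Ugt3a2 ranged from 187 to 255 CPM after 2 weeks and from 215 to 329 CPM after 5 weeks, against 127 to 164 CPM in TAA livers, with log2 changes of 0.57 ± 0.19 (edgeR adjusted p = 0.116) and 0.81 ± 0.19 (edgeR adjusted p = 0.0671). Ugt3a1 had the largest fitted change of the members after 5 weeks and the largest SE. It ranged from 19.7 to 36.9 CPM after 2 weeks and from 22.7 to 50.7 CPM after 5 weeks, against 14.9 to 18.1 CPM in TAA livers. Its high values came from single livers, replicates 19 and 23. The log2 changes were 0.65 ± 0.32 (edgeR adjusted p = 0.256) and 0.95 ± 0.33 (edgeR adjusted p = 0.160).

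**Figure D3:**
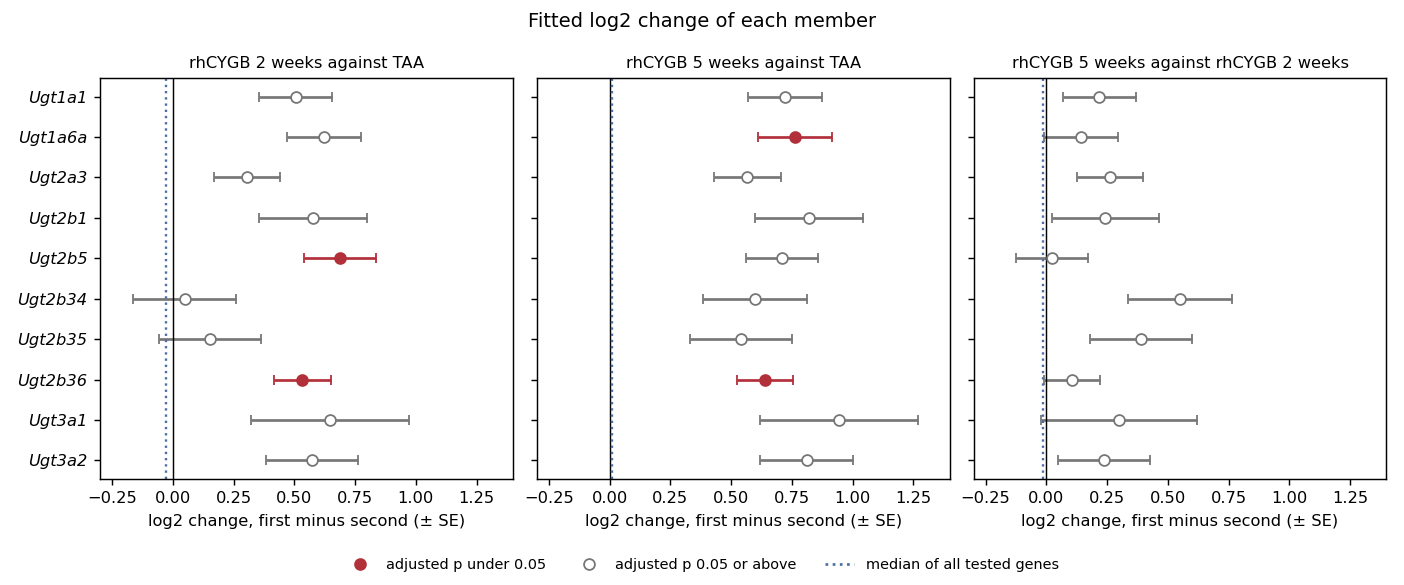
Log2 change of each member with its approximate SE in 3 comparisons, first group minus second, filled red where the edgeR adjusted p was under 0.05, with a dotted line at the median of all tested genes. On the TMM scale used here every point lies right of 0, and 4 of them are filled, with Ugt2b36 filled in both courses.

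Counted over the comparison of 2 weeks of rhCYGB with TAA, 2 of the 10 members rose, 0 fell and 8 did not pass the test, where 1.98% of all tested genes rose. The groups did not overlap, with rhCYGB higher, in 8 members, where this held for 17.3% of all tested genes. The median log2 change was 0.55 over the members and -0.03 over all genes. All 10 passed the filter on low counts, and 6 had an unadjusted p under 0.05, as did 23.4% of all tested genes. Of 488 genes called, 291 were higher and 197 lower; under scaling by library totals 110 of 1722 were higher, the changes of Ugt2a3, Ugt2b34 and Ugt2b35 turned negative, and 0 members were called.

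For 5 weeks of rhCYGB against TAA, 2 members rose, 0 fell and 8 did not pass, where 0.686% of all tested genes rose. The groups did not overlap, with rhCYGB higher, in 10 members, where this held for 11.6% of all tested genes. The median log2 change was 0.72 over the members and 0.01 over all genes, and all 10 members had an unadjusted p under 0.05, as did 19.2% of all tested genes. Of 190 genes called, 101 were higher and 89 lower; under scaling by library totals 38 of 504 were higher and 0 members were called. The courses share the TAA livers, so their changes are not independent of each other.

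The calls rested on few libraries and on the scale. Ugt2b5 and Ugt2b36 stayed called after 2 weeks in 2 of the 9 fits that left out a library, those without the 5-week replicate 23 or 27, and their edgeR adjusted p ran up to 0.175 in the others. Ugt1a6a and Ugt2b36 stayed called after 5 weeks in 1 of 9, the fit without replicate 27, with an edgeR adjusted p of up to 0.199 and 0.187 in the others. Without replicates 17, 18 and 23 together, 0 members were called in either course. On the FPKM that the authors deposited, the 2-week and TAA livers overlapped in all 10 members (4.60% of all tested genes did not overlap and were higher). On the same scale the 5-week livers lay above the TAA livers in 7 members, all but Ugt1a6a, Ugt2b34 and Ugt2b35, where 3.24% of all tested genes did so.

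**Figure D4:**
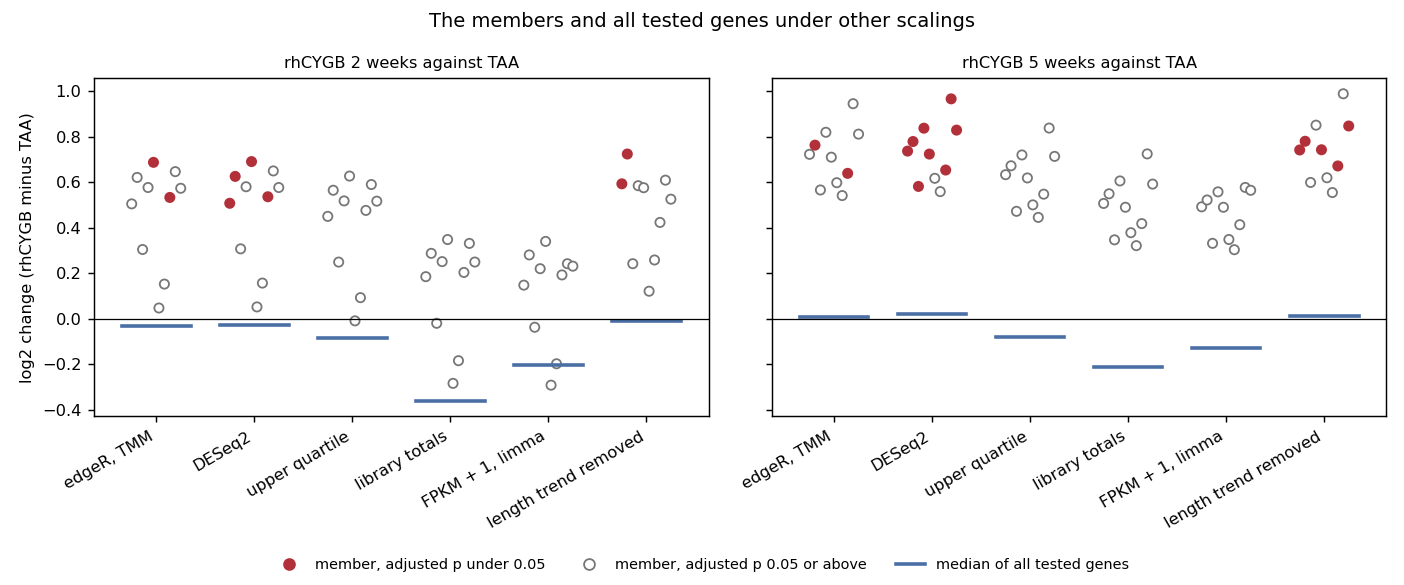
Log2 change of the 10 members (points, rhCYGB minus TAA, red where the adjusted p was under 0.05) and median of all tested genes (blue line) under 6 ways of scaling or testing, for the 2-week course and the 5-week course. Scaling by library totals lowers members and genes alike, to a median of 0.23 and -0.36 after 2 weeks and 0.50 and -0.21 after 5 weeks.

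Scaling by library totals or upper quartile moves all genes alike, so the distance between the members' median and that of all genes is nearly fixed by construction. Under library totals the median of all genes was -0.36 after 2 weeks and -0.21 after 5 weeks. In log2(FPKM + 1) the members' median exceeded that of all genes by 0.41 and 0.62, with 9 and 10 members above it. DESeq2 called 4 members after 2 weeks (Ugt1a1, Ugt1a6a, Ugt2b5 and Ugt2b36) and 8 after 5 weeks (all but Ugt2b34 and Ugt2b35), where it called 6.70% and 4.30% of all tested genes higher.

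For 5 weeks against 2 weeks of rhCYGB no member was called by edgeR or by DESeq2, where edgeR called 0.0204% and DESeq2 5.35% of all tested genes. The groups overlapped in all 10 members. The largest difference was that of Ugt2b34, whose 5-week livers averaged 654 ± 185 CPM and whose 2-week livers averaged 447 ± 79.7 CPM (SD, n = 3 each), a log2 difference of 0.55 ± 0.21 with an edgeR adjusted p of 0.190. It was the 1 member with an unadjusted p under 0.05. Without replicate 23 that difference was 0.30. The other log2 differences ran from 0.02 (Ugt2b5) to 0.39 (Ugt2b35) and do not show that the courses act alike. Between the courses the log2 difference rose with transcript length over the 14731 tested genes (Spearman rho 0.47, a description only). Ugt2b34 and Ugt2b35, with the largest differences, have long transcripts of 3048 and 3358 bases. Ugt1a1 and Ugt1a6a, at 3229 and 3302 bases, had log2 differences of 0.22 and 0.14. Whether length is a cause of these differences was not tested.

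Pooling both courses, 6 rhCYGB livers against 3 TAA livers, Ugt1a6a rose by 0.69 ± 0.14, Ugt2b5 by 0.70 ± 0.13 and Ugt2b36 by 0.59 ± 0.11 on the log2 scale. The edgeR adjusted p-values were 0.0358, 0.0333 and 0.0325. These 3 of 10 compare with 0.869% of all tested genes that rose. DESeq2 called 7 members in this comparison and 4.37% of all tested genes higher. The rhCYGB and TAA livers did not overlap in 8 members, with rhCYGB higher, where this held for 5.47% of all tested genes. On deposited FPKM they overlapped in all 10 members, where 1.15% of all tested genes did not overlap and were higher. Ugt1a1 reached a log2 change of 0.62 ± 0.15 in this comparison (edgeR adjusted p = 0.0605). Leaving out TAA replicate 12, 13 or 14, 2-week replicate 19 or 5-week replicate 27 left 0 members called.

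Replicate 23 of the 5-week course was the highest library in 8 of the 10 members and among the top 3 in all 10. Replicate 14 of the TAA livers was the lowest in 6. Without replicate 23 the 5-week log2 change of Ugt3a1 was 0.46, that of Ugt2b34 was 0.33, that of Ugt2b1 was 0.54 and that of Ugt2b35 was 0.33. Without replicate 19 the 2-week log2 change of Ugt3a1 was 0.33 and that of Ugt1a1 was 0.32. Over all 9 libraries the members' log2 CPM correlated in every one of 45 pairs, with Pearson's r of 0.51 to 0.97 and a median of 0.84, as a description over libraries that share a scale and their groups. Ugt2b1 and Ugt3a2 were most alike (r = 0.97) and Ugt2b5 and Ugt2b34 least (r = 0.51).

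Outside the family, the genes whose log2 CPM followed the called members most closely over the 9 libraries were Cyp2f2, a periportal cytochrome P450, Rida and Pigr for Ugt2b36 (r = 0.992, 0.990 and 0.978). For Ugt2b5 they were Hist1h2bh, Creg1 and Rpp40 (r = 0.976, 0.972 and 0.968). For Ugt1a6a they were Slc6a9, Aldh3a2 and Cab39l (r = 0.975, 0.963 and 0.963). They were taken as the closest of all tested genes, so their values are high by choice.

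Of 11 other Ugt genes in the table, 9 passed the filter, and edgeR called 0 of 9 in any comparison. At an unadjusted p under 0.05, 1 was higher after 2 weeks and 3 after 5 weeks, and DESeq2 called 0 and 1 (Ugt2b38). Of all tested genes 23.4% and 19.2% passed at that p in either direction, and DESeq2 called 6.70% and 4.30% higher. Ugt1a6b averaged 80.0 FPKM, Ugt2b38 46.8 FPKM and Ugt1a9 46.2 FPKM over all libraries, as high as some members. Ugt1a5 had 10.3 FPKM, Ugt2b37 4.98 FPKM, Ugt1a2 2.07 FPKM, Ugt1a7c 1.52 FPKM, Ugt1a10 0.807 FPKM and Ugt8a, which adds galactose to ceramide in myelin-forming cells, 0.143 FPKM. Ugt2a1, known from the olfactory lining, reached at most 0.0157 FPKM, and Ugt2a2 was listed at 0 in every library.

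Among the near-copies outside the 10 members, Ugt2b38 had 129 ± 53.2 CPM after 5 weeks of rhCYGB and 64.0 ± 13.2 CPM in TAA livers (SD, n = 3 each), a log2 change of 1.01 ± 0.33 with an edgeR adjusted p of 0.148. Ugt1a6b, the near-copy of Ugt1a6a, had 203 ± 8.09 CPM after 5 weeks and 152 ± 32.7 CPM in TAA livers (SD, n = 3 each), with a log2 change of 0.42 ± 0.18 (edgeR adjusted p = 0.246). Ugt1a9 had a log2 change of 0.82 ± 0.30 after 5 weeks (edgeR adjusted p = 0.186).

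Enzymes and carriers that handle UDP-glucuronic acid and its precursors were counted as a list of 11 genes, not all of which supply it. In each course 2 rose, 0 fell and 9 did not pass, where 1.98% and 0.686% of all tested genes rose after 2 and 5 weeks. The median log2 change was 0.23 after 2 weeks and 0.27 after 5 weeks. Ugp2, which makes UDP-glucose, had 547 ± 20.4 CPM after 2 weeks and 625 ± 66.7 CPM after 5 weeks, against 377 ± 19.3 CPM in TAA livers (SD, n = 3 each). It rose by 0.54 ± 0.11 (edgeR adjusted p = 0.0396) and by 0.73 ± 0.11 (edgeR adjusted p = 0.0361) on the log2 scale. Slc37a4, which carries glucose 6-phosphate into the endoplasmic reticulum, had 141 ± 16.1 CPM and 150 ± 14.9 CPM in the 2-week and 5-week livers, against 81.1 ± 4.72 CPM in TAA livers (SD, n = 3 each). Its log2 changes were 0.79 ± 0.13 (edgeR adjusted p = 0.0240) and 0.89 ± 0.13 (edgeR adjusted p = 0.0361). The 2-week call of Ugp2 was lost under library totals (0.21), upper quartile scaling (0.48) and FPKM. Its 5-week call was lost under library totals (0.51) and upper quartile scaling (0.65) and in the fit of the compared groups alone (0.72). The 2-week call of Slc37a4 was lost under library totals (0.47) and FPKM, and its 5-week call in the fit of the compared groups alone (0.88). Leaving out each library in turn kept the calls of Ugp2 in 2 and 1 of 9 fits and those of Slc37a4 in 4 and 1, after 2 and 5 weeks. Ugdh, which oxidises UDP-glucose to UDP-glucuronic acid, was named for its role after its values were seen, averaged 562 ± 59.2 CPM and 701 ± 32.0 CPM in the 2-week and 5-week livers, against 569 ± 37.5 CPM in TAA livers (SD, n = 3 each), and passed the test in neither course.

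Among 20 regulators of Ugt genes, by edgeR 2 rose after 2 weeks, 1 rose after 5 weeks and 0 fell, where 1.98% and 0.686% of all tested genes rose. DESeq2 called 3 higher after 2 weeks (Nr1i2, Nr1h3 and Nr0b2), 3 higher after 5 weeks (Nr1i2, Nr1i3 and Ppara) and 0 lower. It called 6.70% and 4.30% of all tested genes higher. Nr1i2, the pregnane X receptor that senses drugs and bile acids, had 103 ± 13.6 CPM after 2 weeks and 56.7 ± 4.53 CPM in TAA livers (SD, n = 3 each), a log2 change of 0.86 ± 0.13 (edgeR adjusted p = 0.0240). After 5 weeks it had 81.8 ± 7.13 CPM (SD, n = 3), a log2 change against TAA livers of 0.53 ± 0.13 (edgeR adjusted p = 0.0813). Nr0b2, a repressor induced by bile acids, had 113 ± 41.9 CPM after 2 weeks and 27.7 ± 11.8 CPM in TAA livers (SD, n = 3 each), with a log2 change of 2.02 ± 0.35 (edgeR adjusted p = 0.0255). After 5 weeks Nr0b2 had 41.4 ± 7.79 CPM (SD, n = 3) and was not called. Nr1i3, the constitutive androstane receptor, which switches on drug-metabolising genes, rose after 5 weeks to 76.5 ± 3.61 CPM, against 45.4 ± 5.88 CPM in TAA livers (SD, n = 3 each), by 0.75 ± 0.13 (edgeR adjusted p = 0.0406). After 2 weeks Nr1i3 had 53.7 ± 5.11 CPM (SD, n = 3) and was not called. Leaving out each library in turn kept the call of Nr1i2 in 4 of 9 fits, that of Nr0b2 in 5 and that of Nr1i3 in 1. The call of Nr1i3 was also lost under library totals (0.53), upper quartile scaling (0.67) and log2(FPKM + 0.1) (0.53), and in the fit of the compared groups alone (0.75). The list's median log2 change was 0.04 after 2 weeks and 0.25 after 5 weeks.

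Of 10 transporters listed for glucuronides and bilirubin, edgeR called 0 in either course. Not all of them are known for these compounds, as with Slc10a1 and Abcb1a. At an unadjusted p under 0.05, 3 were higher and 1 lower after 2 weeks, and 8 were higher after 5 weeks. Of all tested genes 23.4% and 19.2% passed at that p, in either direction. DESeq2 called 2 and 6 higher, Slc10a1 among the 6, where it called 6.70% and 4.30% of all tested genes higher. Their median log2 change was 0.10 after 2 weeks and 0.62 after 5 weeks. Abcc4, an exporter of the blood-facing membrane, passed when all rhCYGB livers were pooled, with 42.5 ± 5.30 CPM after 2 weeks and 43.1 ± 13.7 CPM after 5 weeks, against 21.7 ± 2.91 CPM in TAA livers (SD, n = 3 each), a log2 change of 0.98 ± 0.20 (edgeR adjusted p = 0.0361). That call held in 3 of 9 fits that left out a library and was lost under library totals, upper quartile scaling and FPKM.

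Of 4 genes listed for heme breakdown, edgeR called 0. At an unadjusted p under 0.05, 2 passed after 2 weeks and 0 after 5 weeks, and DESeq2 called 1 (Blvrb) and 0. Of all tested genes 23.4% and 19.2% passed at that p in either direction, and DESeq2 called 6.70% and 4.30% higher. Blvrb, a biliverdin reductase, came closest, with 333 ± 105 CPM after 2 weeks and 133 ± 29.8 CPM in TAA livers (SD, n = 3 each). Its log2 change was 1.33 ± 0.32 (edgeR adjusted p = 0.0529). After 5 weeks Blvrb had 215 ± 83.4 CPM (SD, n = 3), a log2 change of 0.69 ± 0.32 (edgeR adjusted p = 0.268). The log2 change of Blvra, the other biliverdin reductase, was 0.17 ± 0.17 after 2 weeks (edgeR adjusted p = 0.563). Of the 2 genes that cleave glucuronides, edgeR and DESeq2 called 0 and 0 had an unadjusted p under 0.05; Abhd10, which had the lower p of the pair, averaged 6.81 ± 0.18 CPM after 5 weeks and 5.85 ± 0.33 CPM in TAA livers (SD, n = 3 each), with a log2 change of 0.22 ± 0.14 (edgeR adjusted p = 0.430). For 5 weeks against 2 weeks edgeR called 0 genes of these lists. DESeq2 called 2 transporters higher, 4 regulators higher and 2 regulators lower, where it called 5.35% of all tested genes in either direction.

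The libraries carried liver RNA, with Alb, the albumin gene, between 80219 and 119838 CPM. The 15 hepatocyte markers summed to 144793 to 190480 CPM after 2 weeks of rhCYGB and 137914 to 187499 CPM after 5 weeks, against 127749 to 144649 CPM in TAA livers, and 0 and 1 of 15 (Cyp2e1, after 5 weeks) were called higher by edgeR, with 6 and 4 higher at an unadjusted p under 0.05 and 4 and 2 called higher by DESeq2. The 12 markers of stellate cells and myofibroblasts, the scar-forming cells, summed to 519 to 915 CPM and 392 to 848 CPM in the 2-week and 5-week livers, against 1362 to 2053 CPM in TAA livers, without overlap. Of them 3 fell after 2 weeks (Col1a2, Acta2 and Lum) and 2 after 5 weeks (Col1a2 and Acta2) by edgeR, with 6 and 9 lower at an unadjusted p under 0.05 and 5 and 8 called lower by DESeq2. For these markers and those below, the shares of all tested genes after 2 and 5 weeks were as follows. An unadjusted p under 0.05 was reached by 23.4% and 19.2% in either direction. EdgeR called 1.98% and 0.686% higher, and DESeq2 6.70% and 4.30%. The part of cell make-up in the members' changes was not tested.

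**Figure D5:**
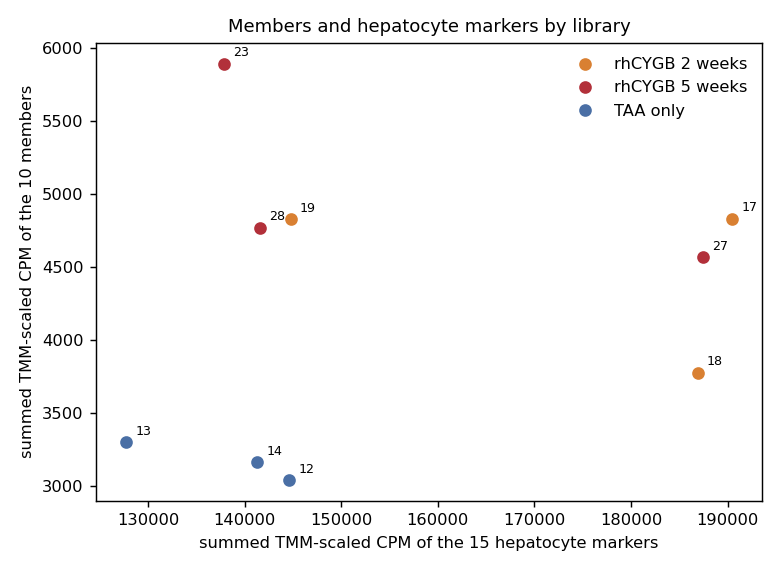
Summed TMM-scaled CPM of the 10 members against that of the 15 hepatocyte markers, with 1 point per library labelled by replicate number. The rhCYGB livers lie between 3776 and 5896 CPM of member RNA and the TAA livers between 3039 and 3299 CPM, and replicate 23, the highest in member RNA, is among the lower libraries in hepatocyte markers.

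Alb made up most of the hepatocyte marker sum. Markers of pericentral hepatocytes summed to 2938 to 3114 CPM after 2 weeks and 3202 to 4365 CPM after 5 weeks, against 1893 to 2577 CPM in TAA livers. Those of periportal hepatocytes summed to 8418 to 10136 CPM and 9545 to 12522 CPM, against 7218 to 8416 CPM, where the gap between replicate 17 (8418 CPM) and TAA replicate 12 (8416 CPM) was minimal. Replicate 23 was the highest library in the periportal sum, as it was in the members' sum, and the TAA livers were the lowest in both. Of the tested pericentral markers 0 of 11 and 1 of 11 (Cyp2e1) were called in the 2-week and 5-week courses, and of the periportal markers 1 of 12 in each (Etnppl and then Cyp2f2), by edgeR. DESeq2 called 3 and 5 pericentral markers higher, and 2 and 3 periportal markers higher with 1 and 0 lower.

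Markers of the other liver cells did not move one way. Cholangiocyte and endothelial markers summed to ranges that overlapped between each rhCYGB group and the TAA livers. Macrophage markers summed to 536 to 867 CPM after 2 weeks and 467 to 564 CPM after 5 weeks, against 658 to 705 CPM in TAA livers, so the 5-week livers lay below the TAA livers. Of the 10 macrophage markers edgeR called 1 higher after 2 weeks (Clec4f, a marker of Kupffer cells), 0 higher after 5 weeks and 0 lower. Their median log2 change was -0.11 after 2 weeks and -0.47 after 5 weeks. After 2 weeks DESeq2 called 1 higher (Clec4f) and 1 lower (Ccr2), and after 5 weeks 0 higher and 2 lower (Lyz2 and Ccr2). Lymphocyte markers summed to 10.3 to 16.2 CPM after 2 weeks and 5.29 to 16.6 CPM after 5 weeks, against 6.08 to 8.53 CPM in TAA livers. Of the 7 tested, edgeR called 1 higher after 2 weeks (Nkg7, a marker of cytotoxic cells) and 0 after 5 weeks. DESeq2 called 2 and 0 of them higher. Intestine markers summed to 73.8 to 98.9 CPM and 79.5 to 95.5 CPM in the 2-week and 5-week livers, against 60.4 to 69.5 CPM in TAA livers. Most of that sum was Fabp2 (42.3 to 60.8 CPM over all libraries) and Lgals4 (15.6 to 42.3 CPM), with Cdx1, Cdx2 and Sis at 0 in every library.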

How the data were processed

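RNA of 9 livers was sequenced. The deposited gene table holds estimated counts of reads made by the authors (whole numbers, rounded where needed before testing) and FPKM for 24532 genes, and a second table lists 36780 transcripts with their length. Both were made by the authors with FastQC 0.11.7, HISAT2 2.1.0 and StringTie 1.3.4d on mm10, per the submitters' processing notes. Whether counting used strand is not given in the sources used here. The deposited FPKM values are per length and depend on each library's total.

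Genes passed edgeR's filter (minimum count 10, minimum total 15), which left 14731. TMM factors set the scale, and edgeR 4.0.16 (quasi-likelihood F test, R 4.3.3) was fitted as 1 model of 3 groups with 6 residual degrees of freedom, or of 2 groups for all rhCYGB livers against TAA. P-values were adjusted by Benjamini-Hochberg over all tested genes, and 0.05 was the threshold. The standard error is the log2 change divided by the square root of F. CPM values use TMM-scaled library sizes. Alternatives were DESeq2 1.42.0, limma 3.58.1 on log2(FPKM + 1) or log2(FPKM + 0.1), other scalings, a length trend fitted by lowess (span 0.3) and leaving out libraries. The edgeR step was tested on simulated data. Coding identity was computed with Biopython 1.88.

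The members and gene lists were chosen with earlier results of these data known. All members and all other Ugt genes are named. From each pathway list up to 4 called genes are named, or the gene with the lowest p, and for each called member the 3 tested genes with the highest Pearson's r over the 9 libraries. Marker lists are given as counts and sums, with defining genes named. The result of 1 marker list is not reported here.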

Additional observations from a re-analysis of the deposited data

How the results depend on the processing

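Of the members' log2 changes under the alternatives, 142 of 190 kept their direction and side of the threshold after 2 weeks, 152 of 190 after 5 weeks, 178 of 190 for 5 against 2 weeks and 142 of 180 for all rhCYGB livers, where the fit of the compared groups alone does not exist. Most members were not called in the main fit, and staying uncalled counts as kept, so these counts do not measure how firm the calls were. A call was lost in 27, 29 and 28 values after 2 weeks, after 5 weeks and for all rhCYGB livers. It was gained in 8, 9 and 10. After 5 weeks and for all rhCYGB livers 0 reversed. The cause of the shifts below was not tested. DESeq2 called 4, 8 and 7 members (2 weeks, 5 weeks, all rhCYGB) and 1713, 1188, 788 (5 against 2 weeks) and 1230 genes. Upper quartile scaling called 0 members in each course and 77 genes after 5 weeks. Library totals called 0 members in these 3 comparisons and 1722, 504 and 1163 genes, of which 6.39%, 7.54% and 4.99% were higher. Upper quartile scaling gave 45.1%, 41.6% and 26.7% higher. With log2(FPKM + 1) 0 members were called, and 1983, 1001, 5 (5 against 2 weeks) and 1641 genes, 7.31%, 6.89% and 5.06% of them higher against TAA. With log2(FPKM + 0.1) 0 members were called, and 1639, 693 and 1174 genes. Without the filter 1 member was called in each course and 105 genes after 5 weeks. The fit of the compared groups alone called 1023 genes after 2 weeks, 1 gene and 0 members after 5 weeks and 0 genes for 5 against 2 weeks. With the length trend removed 5 members and 603 genes were called after 5 weeks, 6 genes for 5 against 2 weeks and 586 for all rhCYGB livers. Without 2-week 17 and 18 and 5-week 23 together, 0 members were called in each course and 7 for all rhCYGB livers, with 12, 7 and 5 genes called after 2 weeks, after 5 weeks and for 5 against 2 weeks. Leaving out each library in turn called 0 to 4 members and 1 to 1095 genes after 2 weeks, 0 to 2 members and 0 to 240 genes after 5 weeks, 1 to 1889 genes for 5 against 2 weeks, and 0 to 4 members and 0 to 662 genes for all rhCYGB livers. An arm then held 2 samples, or 1 where 3 libraries were left out, and the lone sample is assumed to vary like the other groups.

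These log2 changes reversed after 2 weeks. Under library totals Ugt2a3 was at -0.0192, Ugt2b34 at -0.28 and Ugt2b35 at -0.18. With log2(FPKM + 1) they were at -0.0367, -0.29 and -0.20, and with log2(FPKM + 0.1) at -0.0374, -0.29 and -0.20. Ugt2b34 was at -0.0086 under upper quartile scaling, and leaving out single libraries gave -0.0776 (2-week 19) to 0.18 (2-week 18), with -0.01 without TAA 12 and -0.03 without TAA 14. For 5 against 2 weeks without the 3 libraries together, Ugt1a1 was at -0.13, Ugt1a6a at -0.0033, Ugt2a3 at -0.0582, Ugt2b1 at -0.27, Ugt2b36 at -0.0842, Ugt3a1 at -0.65 and Ugt3a2 at -0.21. Leaving out single libraries, Ugt2b1 ran from -0.0228 (5-week 23) to 0.40 (5-week 27), Ugt3a1 from -0.17 (5-week 23) to 0.61 (2-week 19) and Ugt2b5 from -0.0894 (2-week 18) to 0.17 (2-week 17), with -0.03 without 5-week 23. Ugt2b5 was at -0.0082 under upper quartile scaling. No paired analysis was possible because the groups share no replicate numbers.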
